A study of Caenorhabditis elegans with 2 samples.

Results

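The ceh genes (C. elegans homeobox) are described here at the chromatin bound by LSY-2, a nuclear zinc finger protein of the worm Caenorhabditis elegans. They were chosen by name, with earlier results of these data known. The set is the protein-coding genes of the Ensembl annotation whose name begins with ceh-, without ceh-13, ceh-20, ceh-36 and ceh-40. That left 59 of 63 ceh genes, out of 19973 protein-coding genes in all. The libraries are ChIP-seq of whole L1 larvae, the first larval stage, of mixed sex, per the labels, which do not say which tissues were bound. All animals were of strain OP367, which has the genotype unc-119(tm4063) III; wgIs367 and carries an insertion for eGFP-tagged LSY-2. The antibody is labelled lsy-2. The labels give 1 group with 2 biological replicates and no second condition, so there is no change to compare and no test was made. The authors called peaks against a control alignment, and no control peak list was used here. Whole larvae were measured, so a site bound in few cells cannot be told apart from a site bound weakly in many.

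A homeobox encodes the homeodomain, a compact fold of helices that places a recognition helix in the major groove of DNA. Homeobox genes are known in worms as selectors of cell identity, and nearly every neuron class is marked by its own combination of them. The family divides into classes by sequence and by companion domains. POU and CUT proteins carry a second DNA-binding domain, sine oculis class proteins a protein interaction domain, and LIM proteins a pair of zinc-binding LIM domains. Paired-like, NK-2 type and other Antennapedia-class proteins act in neurons, muscle, pharynx and epidermis. LSY-2 itself is known for a part in the left/right asymmetry of a pair of taste neurons.

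LSY-2 peaks that passed the authors' threshold on the irreproducible discovery rate (IDR), a measure of how well replicates repeat each other's peak ranks, stood in the promoter windows of 6 ceh genes: ceh-38, ceh-6, ceh-39, ceh-100, ceh-92 and ceh-23. The intron of 1 further gene, ceh-18, held a peak, and 52 of the 59 genes had neither. The peak at ceh-38 had a signal of 574 and ranked 191 of 4218 peaks, whereas the other 6 peaks had signals from 43.2 to 88.4 and ranks from 2085 to 4129. A promoter window reached from 1000 bp before to 200 bp after any transcript start, and a summit counted as intronic inside a transcript and outside every exon of the gene. The signal is the authors' own value for a peak, and it served only for description. The weakest peak past the threshold had a signal of 42.2. In the authors' list for both replicates pooled, before the threshold, 3385 protein-coding genes had a promoter peak of at least 42.2. As many had one past the threshold, so at promoters it acted as a cut on the pooled signal. A peak below it can still have a summit in both replicates.

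The sequence at or next to the summit is shown for 5 of these genes, without ceh-6 and ceh-92. The sequence at the strongest ceh promoter peak below the threshold, at ceh-93, is shown as well. Each is read 5′ to 3′ on the gene's strand from the RefSeq genome of WBcel235, the ce11 build. Parts annotated as UTR were left out, so the run at ceh-38 ends just before the transcript start and does not reach the summit. Capitals mark GAGAGA or else GACGCA or else ACCGTA or else TAATTA, each searched on both strands (their reverse complements are TCTCTC for the first and TGCGTC for the second).
ceh-38 promoter, chrII:6951394-6951525, plus strand: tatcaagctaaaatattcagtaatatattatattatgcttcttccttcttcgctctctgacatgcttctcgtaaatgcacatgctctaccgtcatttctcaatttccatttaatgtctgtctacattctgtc
ceh-39 promoter, chrX:1856283-1856433, minus strand: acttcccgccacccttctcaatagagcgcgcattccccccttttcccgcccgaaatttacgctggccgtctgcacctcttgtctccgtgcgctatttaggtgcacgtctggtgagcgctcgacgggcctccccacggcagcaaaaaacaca
ceh-100 promoter, chrII:12603810-12603960, minus strand: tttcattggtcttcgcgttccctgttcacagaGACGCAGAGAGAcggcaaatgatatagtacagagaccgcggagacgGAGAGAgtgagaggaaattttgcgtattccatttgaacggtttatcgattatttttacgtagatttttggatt
ceh-23 promoter, chrIII:7839094-7839244, plus strand: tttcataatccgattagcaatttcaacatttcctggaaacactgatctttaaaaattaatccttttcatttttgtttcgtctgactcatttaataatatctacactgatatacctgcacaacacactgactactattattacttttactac
ceh-18 intron, chrX:3854054-3854204, minus strand: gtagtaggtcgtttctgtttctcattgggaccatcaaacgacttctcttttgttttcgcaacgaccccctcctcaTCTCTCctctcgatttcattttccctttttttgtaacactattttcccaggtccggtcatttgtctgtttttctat
ceh-93 promoter, below the threshold, chrX:388824-388974, minus strand: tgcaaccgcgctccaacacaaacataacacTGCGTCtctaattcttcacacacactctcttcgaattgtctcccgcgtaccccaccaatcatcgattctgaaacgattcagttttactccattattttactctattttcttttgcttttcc

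The sequences GAGAGA as well as GACGCA as well as ACCGTA were picked in an earlier look at these data, and TAATTA is a common core of homeodomain target sites. In 151 bp windows centred on the summits, GAGAGA was present at 2 of the 7 promoter and intron peaks of ceh genes and at 37.0% of all 4218 peaks. It lay at ceh-100 and ceh-18. GACGCA was present at 3 of 7, namely ceh-6, ceh-92 and ceh-100, and at 21.1% of all peaks. The sequences can adjoin or overlap, and at ceh-100 a GACGCA ran directly into a GAGAGA, as printed above. ACCGTA was present at 1 of 7, ceh-6, and at 8.82% of all peaks, and TAATTA at 0 of 7 and at 3.77%. The windows at ceh-38, ceh-39 and ceh-23 held none of the sequences. GC content ran from 29.1% at ceh-23 to 59.6% at ceh-39, with a median of 41.7% over the 7 windows and 43.0% over all peaks. In 300 bp promoters (250 bp before to 50 bp after the outermost start), GAGAGA stood in 19 of 59 ceh genes (32.2%) and in 21.8% of all protein-coding genes. ACCGTA stood in 9 (15.3%, against 8.11%), GACGCA in 6 (10.2%, against 8.78%) and TAATTA in 8 (13.6%, against 15.5%). These are matches of letters and no measure of binding.

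Among the CUT genes, ceh-38 and ceh-39 had promoter peaks. Worm CUT factors are known to act together on genes that all neurons share, and ceh-39 also takes part in the counting of X chromosomes in sex determination. At ceh-38 (WBGene00000459, chromosome II, 6951526 to 6955409) the signal was 292 in replicate 1 and 276 in replicate 2, a mean of 284 ± 11.5 (SD, n = 2). The summit lay 27 bp inside the gene, in its 5' UTR, and 253 bp from the start of malt-1, a paracaspase gene whose window also held it. Its replicate ranks were 213 and 168 of 30000 peaks each, so both libraries placed it near the top.

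At ceh-39 (WBGene00000460, chromosome X, 1853874 to 1856172) the pooled signal was 79.5, with 48.3 in replicate 1 and 30.4 in replicate 2, a mean of 39.3 ± 12.6 (SD, n = 2). The summit was intergenic, 186 bp upstream of ceh-39 and nearer, at 115 bp, to the start of the non-coding RNA gene T26C11.10. Its CUT neighbours ceh-21 and ceh-41 had no promoter peak. The gene ceh-21 lies 1137 bp from ceh-39, its nearest summit past the threshold was this same one, 3622 bp from its start, and no pooled peak fell in its window before the threshold was applied. The gene ceh-41 lies 5198 bp from ceh-39 and likewise had no pooled promoter peak. No pooled promoter peak was found at ceh-48 or ceh-49 either. Among the 6 CUT genes counted, 1 thus had a strong promoter peak, 1 a peak of middle rank and 4 none. A further CUT gene, ceh-44, has another name in the annotation and was not counted. It had an intron peak past the threshold with a signal of 77.8.

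Both ceh genes assigned to the POU class had a peak past the threshold, at different places. Homeobox genes without a ceh name were not counted in this class. At ceh-6, known for its part in the excretory cell, the promoter peak had a pooled signal of 88.4, with 45.9 in replicate 1 and 39.7 in replicate 2, a mean of 42.8 ± 4.38 (SD, n = 2). The gene (WBGene00000431) lies on chromosome I, 8498112 to 8502604. The summit lay in the 5' UTR of ceh-6, 121 bp after the only annotated start, and no other protein-coding window held it. At ceh-18, which acts in the gonadal sheath cells that signal to oocytes, the peak was intronic. It had a pooled signal of 52.7, with 21.2 in replicate 1 and 25.3 in replicate 2, a mean of 23.3 ± 2.86 (SD, n = 2). The gene (WBGene00000441) lies on chromosome X, 3843367 to 3857797. The summit lay 1427 bp upstream of the nearest of the 3 ceh-18 starts and 94 bp upstream of the non-coding RNA gene ZC64.5. The nearest protein-coding start to it was nonetheless that of ceh-18.

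The remaining promoter peaks were at ceh-100, ceh-92 and ceh-23, which were given no class here. At ceh-100 (WBGene00012584, chromosome II, 12582178 to 12603680) the pooled signal was 55.0, with 16.1 in replicate 1 and 37.2 in replicate 2, a mean of 26.6 ± 14.9 (SD, n = 2), so replicate 2 was the higher. The summit lay 205 bp upstream of ceh-100 and 501 bp from the start of lips-15. At ceh-92 (WBGene00013431, chromosome III, 11581600 to 11589133) the pooled signal was 51.5, with 40.8 in replicate 1 and 23.4 in replicate 2, a mean of 32.1 ± 12.3 (SD, n = 2). That summit was 905 bp upstream of ceh-92 but 217 bp from the start of Y66D12A.7, and it fell in the 3' UTR of Y66D12A.6.

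The weakest of the peaks was at ceh-23 (WBGene00000446, chromosome III, 7839592 to 7841491), known for its part in the AIY interneurons. It had a pooled signal of 43.2, with 22.2 in replicate 1 and 28.7 in replicate 2, a mean of 25.5 ± 4.57 (SD, n = 2), and it ranked 4129 of 4218. Its summit was intergenic, 423 bp upstream of the single start, and no other protein-coding window held it. The gene lies in the region of the Hox genes, 22.4 kb from egl-5 and 56.1 kb from mab-5 on chromosome III.

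**Figure D1:**
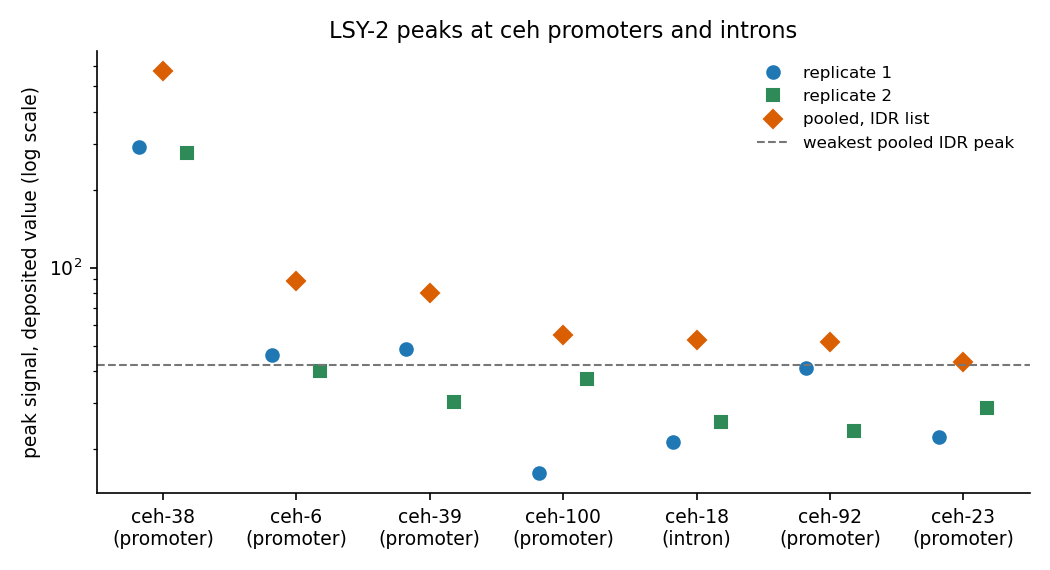
Peak signal (log scale) of the 7 LSY-2 peaks at ceh genes, in replicate 1 (circles), replicate 2 (squares) and the pooled IDR list (diamonds), with a dashed line at the weakest pooled IDR peak, 42.2. The peak at ceh-38 stands apart at 574, and at ceh-100 replicate 2 (37.2) lies well above replicate 1 (16.1).

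Replicate 1 was the higher at 4 of the 7 peaks and replicate 2 at 3. Across the 4179 IDR peaks with a summit within 200 bp in both replicates, replicate 1 was higher at 77.7%. The log2 ratio of replicate 1 to replicate 2 had a median of 0.34 over these peaks. At ceh-100 it was -1.20, outside the middle 95% of all such peaks (-0.73 to 1.68). The means and SDs above are of unscaled signals, so they include the offset between the replicates. At ceh-18, ceh-23 and ceh-100 the peak ranked 5110, 4883 and 7006 in replicate 1, below the 4218 strongest peaks of that library, and 3319, 2911 and 2231 in replicate 2. With the 4218 strongest peaks of replicate 1 alone, these 3 genes were lost, which left 4 genes with a promoter peak and none with an intron peak. With those of replicate 2 alone, the same 6 promoter genes and the same intron gene were found.

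Past the IDR threshold, promoter peaks stood at 6 of 59 ceh genes. That is 10.2% (95% exact Clopper-Pearson interval 3.82 to 20.8, which covers the counting of genes only), beside 16.9% of all protein-coding genes, a share that lies within the interval. Intron peaks stood at 1 of 59 (1.69%, interval 0.0429 to 9.09), beside 3.41% of all protein-coding genes. A promoter or intron peak stood at 7 of 59 (11.9%, interval 4.91 to 22.9), beside 18.4%. The ceh genes with a promoter peak had a median signal of 67.2 for their strongest one, beside 121 over every protein-coding gene that had one, and 5 of the 6 lay below that median. The replicates gave a median of 47.1 in replicate 1 (4 genes) and 33.8 in replicate 2 (6 genes), beside 67.8 and 54.1 over all protein-coding genes, on the scale of each list.

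Before the threshold was applied, peaks at ceh genes were mostly weak. The pooled list before the threshold holds 30000 peaks, and 28 of 59 ceh genes had at least 1 of these in the promoter window (47.5%, exact interval 34.3 to 60.9), beside 39.0% of all protein-coding genes, a share within the interval. Pooled promoter peaks, but none past the threshold, stood at 22 ceh genes (37.3%), beside 22.1% of all protein-coding genes. Of the genes with any pooled promoter peak, 21.4% of ceh genes had one past the threshold, beside 43.4% of all such genes. The order of the shares differed with the signal required. At a signal of at least 10 the shares were 33.9% of ceh genes and 34.8% of all protein-coding genes. At 20 they were 16.9% and 24.9%, and at 100 they were 1.69%, ceh-38 alone, and 9.87%. At 500 they were 1.69%, again ceh-38 alone, and 1.63%. Among isolated genes at a signal of at least 10, the shares were 31.7% of ceh genes and 30.8% of all isolated protein-coding genes. No test was made of these differences, since the list was chosen by name with earlier results known.

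**Figure D2:**
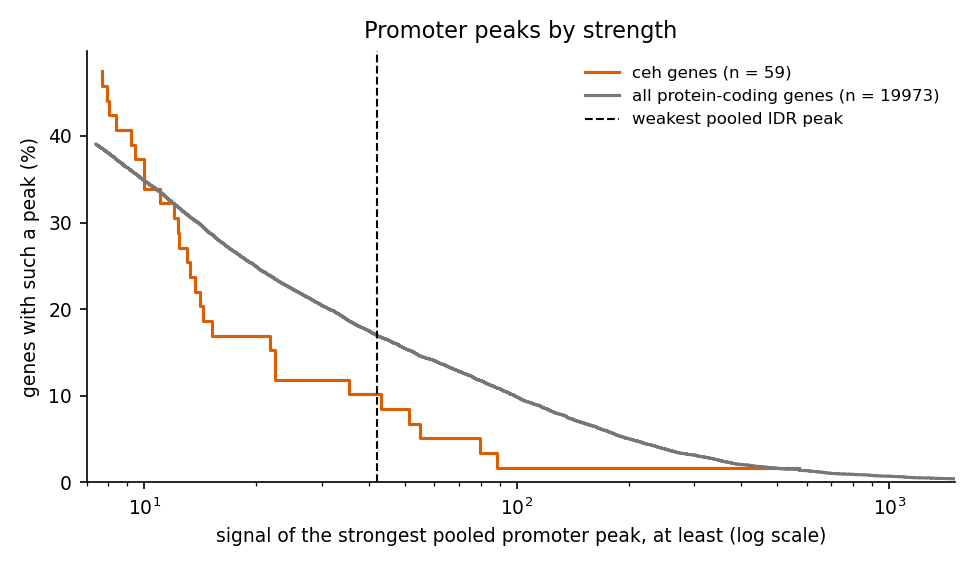
Share of the 59 ceh genes and of all 19973 protein-coding genes whose strongest pooled promoter peak reaches a given signal (log scale), with a dashed line at the weakest IDR peak, 42.2. The ceh curve starts higher, at 47.5% beside 39.0%, and lies lower at the threshold, at 10.2% beside 16.9%.

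Each library was also taken alone. A promoter peak in the list of replicate 1 stood at 26 of 59 ceh genes (44.1%), beside 40.3% of all protein-coding genes, and in the list of replicate 2 at 24 (40.7%), beside 41.5%. Both lists had one at 18 ceh genes (30.5%, exact interval 19.2 to 43.9), beside 33.0%. In the pooled list the share of ceh genes was the higher one, and for promoters with a peak in both replicates the lower one. In each case the share of all protein-coding genes lay within the interval of the ceh share.

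Of the 22 ceh genes with a weak promoter peak alone, 8 had a summit within 200 bp in both replicates: ceh-93, ceh-89, ceh-62, ceh-43, ceh-27, ceh-10, ceh-37 and ceh-5. Another 10 had it in replicate 1 only, 2 in replicate 2 only (ceh-60 and ceh-91) and 2 in neither (ceh-18 and ceh-45). Of the 4413 protein-coding genes with a weak peak alone, 2281 had a summit in both replicates, 1792 in 1 replicate and 340 in neither. The 1792 were not split by replicate, so the split of 10 and 2 has no count over all genes beside it. Pooled signals ran from 7.68 at ceh-60 to 35.5 at ceh-93, with a median of 12.4, beside 15.8 over all such protein-coding genes. The 5 strongest are described here. At ceh-93 the signal was 18.8 in replicate 1 and 17.0 in replicate 2, with the pooled summit 102 bp upstream of the start. At ceh-89 it was 14.2 in replicate 1 and 4.99 in replicate 2, and the pooled signal was 22.4. At ceh-62 it was 13.6 in replicate 1 and 5.90 in replicate 2, again with a pooled signal of 22.4. Both replicates thus held the ceh-93 peak at similar levels, while replicate 1 was the higher at ceh-89 and ceh-62. The Distal-less gene ceh-43, which acts in the head epidermis and in dopaminergic neurons, had 10.6 in replicate 1 and 8.19 in replicate 2, with a pooled signal of 21.8. The NK-2 type gene ceh-27 had 9.81 in replicate 1 and 4.92 in replicate 2, with a pooled signal of 15.2. Just inside the threshold stood ceh-23 at 43.2, and just outside it ceh-93 at 35.5.

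**Figure D3:**
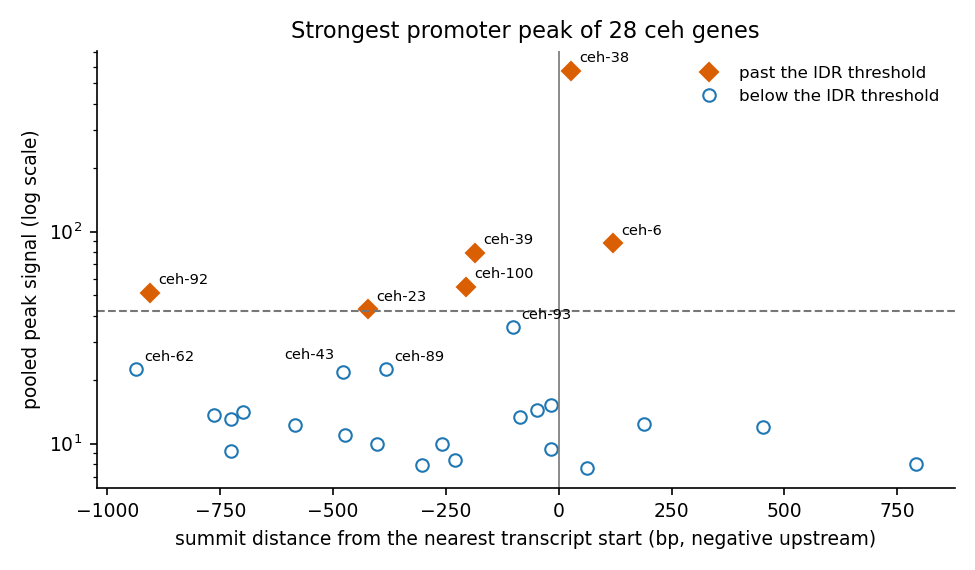
Pooled signal (log scale) of the strongest promoter peak of 28 ceh genes against the distance of its summit from the nearest transcript start in bp, negative upstream. The 6 peaks past the threshold lie from 905 bp upstream (ceh-92) to 121 bp downstream (ceh-6). In 18 of the other 22 genes the summit lay upstream, as does most of the window itself (1000 bp before to 200 bp after a start). Values beyond 200 bp downstream belong to genes with several starts, where the summit is upstream of another start.

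Each class was counted over ceh genes alone. Among these, the POU and CUT genes held all the promoter and intron peaks past the threshold of genes assigned to a class. Promoter peaks past the threshold stood at 1 of 2 POU genes and 2 of 6 CUT genes, and at 0 of 3 sine oculis class, 0 of 1 LIM, 0 of 7 Paired-like, 0 of 5 NK-2 type, 0 of 8 other Antennapedia-class and 0 of 1 PBC genes. The other 3, at ceh-23, ceh-92 and ceh-100, were among the 26 genes given no class, so a class counted at 0 here may yet hold a peak. Classes were assigned with earlier results of these data known, and the counts by class depend on which genes were given one. Before the threshold, Paired-like genes had pooled promoter peaks at 5 of 7 members with a median signal of 13.3. These were ceh-8, ceh-10, ceh-17, ceh-37 and ceh-45. Several well-studied genes had no pooled promoter peak at all. Examples are ceh-14, a LIM gene of sensory neurons, ceh-22, an NK-2 type gene of pharyngeal muscle, and ceh-32, a sine oculis class gene of the head. At the engrailed gene ceh-16, of the epidermal seam cells, and the sine oculis class gene ceh-34, of the pharyngeal neurons, the strongest pooled signals were 9.96 and 8.39. The classes are small, and no class was compared with another by a test.

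**Figure D4:**
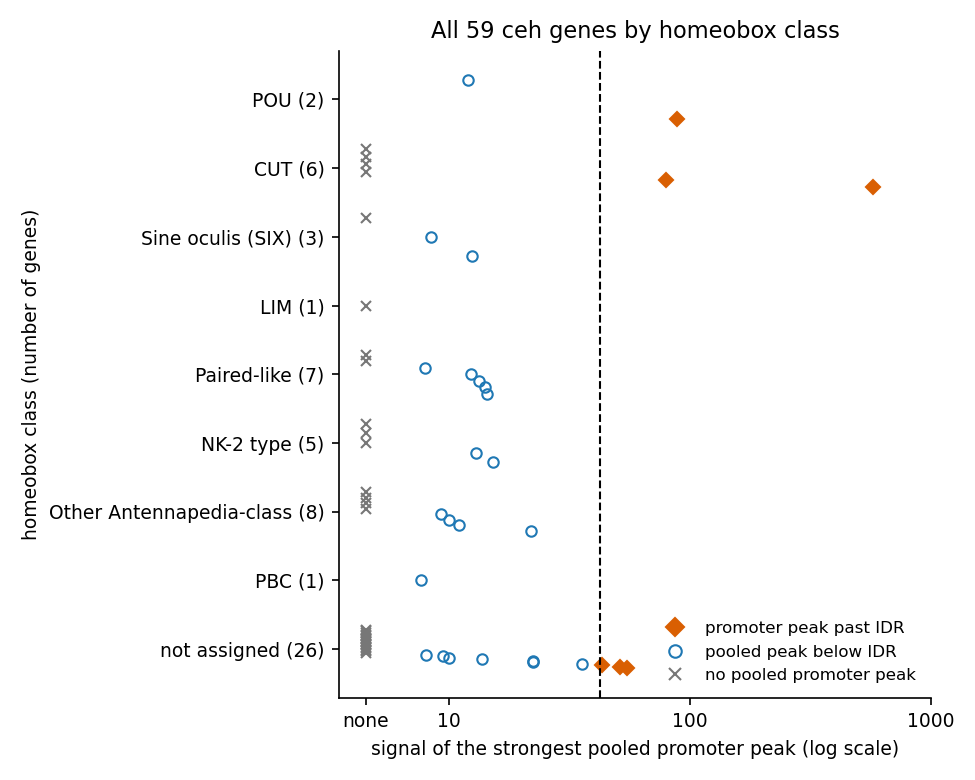
Signal of the strongest pooled promoter peak (log scale) for each of the 59 ceh genes, by homeobox class with the number of genes in brackets, and crosses for the 31 genes with no pooled promoter peak. Peaks past the threshold (diamonds) are in the POU and CUT rows and among the 26 genes given no class.

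Homeobox genes without a ceh name, 39 in all, include Hox genes such as lin-39 and mab-5. Promoter peaks past the threshold stood at 6 of them (15.4%), beside 16.9% of all protein-coding genes: unc-62, lin-39, mab-5, unc-42, irx-1 and nob-1. Signals there ran from 47.0 at nob-1 to 143 at unc-62, a range that ceh-38 exceeds. Intron peaks stood at 5 of the 39 (12.8%): unc-42, unc-62, lin-11, lin-39 and mab-5. The share was 3.41% over all protein-coding genes, and ceh genes had 1 of 59. At unc-42, unc-62 and lin-39 the promoter signal came from a summit that also counted as intronic. Among the excluded ceh genes, ceh-20 and ceh-13 had promoter peaks with signals of 182 and 114.

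Introns were measured by their length and their summits. The total intron length had a median of 1228 bp in ceh genes and 722 bp in all protein-coding genes. In 128 kb of ceh introns lay 1 IDR summit, or 0.779 per 100 kb, beside 2.60 per 100 kb over all protein-coding genes. The ceh figure rests on that 1 summit. With intron summits outside every protein-coding promoter window alone, 1 ceh gene had one (1.69%), beside 2.03% of all protein-coding genes. Before the threshold, ceh introns held 28 pooled summits, or 21.8 per 100 kb, beside 34.2. The strongest of these below the threshold, with a signal of 22.8, lay in an intron of ceh-43. The longest introns, 17267 bp in all in ceh-100, held no summit past the threshold.

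Outside the windows, 4 more IDR summits had a ceh gene as the nearest protein-coding start. One is the ceh-18 intron peak, and 2 lay upstream of ceh-43 in intergenic sequence. Those were 3030 bp away, with a pooled signal of 63.0 (37.6 in replicate 1 and 24.1 in replicate 2), and 6855 bp away, with 113 (63.9 in replicate 1 and 54.0 in replicate 2). The last lay 1736 bp upstream of ceh-5 with a signal of 331 (192 in replicate 1 and 131 in replicate 2), in an intron of ocrl-1 and also in the 3' UTR of eat-16. With summits given to the nearest start at any distance, 8 of 59 ceh genes had at least 1 (13.6%), beside 17.2% of all protein-coding genes. The distance from a ceh gene's start to the nearest IDR summit had a median of 10886 bp, beside 8962 bp over all protein-coding genes, and 43 of 59 ceh genes (72.9%) had none within 5000 bp, beside 62.9%. The most distant were ceh-81, ceh-82 and ceh-83, neighbours on chromosome II, at 89700, 87871 and 83570 bp.

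The spacing of the genes was measured as well. The nearest other protein-coding start was a median of 2719 bp away from ceh genes, beside 1974 bp for all protein-coding genes, and 41 of 59 ceh genes (69.5%) had none within 2000 bp, beside 49.4% of all protein-coding genes. Of these isolated genes, 3 of 41 ceh genes had a promoter peak past the threshold (7.32%, exact interval 1.54 to 19.9), namely ceh-6, ceh-23 and ceh-39, beside 987 of all 9862 isolated protein-coding genes. Before the threshold the shares were 51.2% of isolated ceh genes and 35.9% of all isolated protein-coding genes. With the shares of all protein-coding genes weighted by the chromosomes of the ceh genes, 16.2% would stand beside the 10.2% in place of 16.9%. By chromosome, promoter peaks stood at 5 of 43 autosomal ceh genes (11.6%, beside 17.8%) and at 1 of 16 on X (6.25%, beside 11.3%).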

How the data were processed

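ChIP-seq of eGFP-tagged LSY-2 was measured in 2 biological replicates of 1 group. Per the text files deposited with the lists, the authors called peaks against a control alignment for each replicate and for both pooled, and derived the IDR-thresholded list from these. Which aligner and caller were run, in what version and with what IDR limit, was not given in the sources used here. Every peak's deposited signal was set by the authors on a scale that no source used here defines, and its level differs between lists. No list gives reads, so the depth is unknown and intervals cover the counting of genes only. The lists on ce11 were used, with the Ensembl release 115 annotation and the RefSeq genome of the same assembly. Those on ce10 were not.

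Summits were matched to transcript starts and introns, and each replicate contributed the signal of its closest summit, at most 200 bp away. No test was made. Some shares of ceh genes carry 95% exact intervals. The others, among them the 37.3% with a weak promoter peak alone, carry none. Counting was tested on simulated data. Named are all ceh genes with a promoter or intron peak past the threshold and the 5 strongest below it. Genes just outside the windows, and examples of classes, were chosen after their values were seen. The members, lists and motifs were chosen with earlier results of these data known. Alternatives covered windows, thresholds, replicates, overlap and assignment, and 1 was added after the data were seen, the restriction to isolated genes. The software was Python 3.11.15 with scipy 1.17.1 for intervals, pandas 2.3.3 and numpy 2.4.6 for tables, and matplotlib 3.10.9 for plots.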

Additional observations from a re-analysis of the deposited data

How the results depend on the processing

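The 6 ceh genes with a promoter peak became 2 with the strongest 2109 of the IDR peaks (ceh-38 and ceh-6), 28 with all pooled peaks and 3 among isolated genes. The window of 500 bp before to 100 bp after the start left 4 and that of 2000 bp before the start gave 8, adding ceh-5 and ceh-18. Any overlap gave 6, the nearest start alone 5, and the 4218 strongest peaks of single replicates 4 to 6. The 1 gene with an intron peak became 0 with the strongest 2109, 16 with all pooled peaks and 2 with any overlap, and single replicates gave 0 to 1. It stayed 1 with only intron summits outside every protein-coding promoter window. The 7 genes with either became 2 with the strongest 2109, 29 with all pooled peaks and 4 among isolated genes, and single replicates gave 4 to 7. The median signal of 67.2 became 33.8 to 47.1 in single replicates, whose lists have lower levels. No paired analysis was possible because there is 1 group. In each of these settings but that of all pooled peaks, the share of ceh genes with a promoter peak, an intron peak or either was below that of all protein-coding genes. With all pooled peaks it was above, for promoters (47.5% beside 39.0%), introns (27.1% beside 22.2%) and either (49.2% beside 43.7%), as it was for promoters in the whole list of replicate 1 (44.1% beside 40.3%).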

Other observations

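In 2 ceh genes an IDR summit lay in an exon, outside the promoter windows and introns. At ceh-8, a Paired-like gene, it had a signal of 132 (79.3 in replicate 1 and 52.8 in replicate 2) and fell in the 3' UTR, 21 bp upstream of the non-coding RNA gene ZK265.11 and 680 bp upstream of col-63. At ceh-88 it had a signal of 45.3 (16.1 in replicate 1 and 23.0 in replicate 2), also in the 3' UTR, 205 bp upstream of C49C3.6.

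The CUT gene that RefSeq names ceh-44 is called cone-1 in the Ensembl annotation, so its name kept it out of the 59 genes. It had no promoter peak past the threshold and 1 intron peak, with a signal of 77.8.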
